A study of Mus musculus with 12 samples.

Results

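The mouse mitochondrial genome and a short stretch of chromosome 1 that resembles part of it were compared between wild-type and Drosha-deficient embryonic stem (ES) cells. The members are the rows whose gene name starts with mt- and the 4 rows RP23-8J15.1 to RP23-8J15.4 on chromosome 1. They were chosen by name, with the values of these rows already known, so their values are a description and carry no test. Of 36883 rows in each of 3 tables, 12 were members, 8 of them mitochondrial. Drosha is the nuclear ribonuclease that releases microRNA hairpins from their primary transcripts. By its title the series asks about CG methylation and Drosha. Its RNA tables hold 1 wild-type and 1 Drosha-deficient library for each of 3 fractions: poly(A)-selected mRNA, long RNA and short RNA.

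All 6 libraries came from ES cells cultured in medium with fetal serum and leukemia inhibitory factor. The labels of the RNA samples give the genotype and the fraction but no strain. The methylation samples of the wild-type and Drosha-deficient lines are labelled 129Sv/Ev, and their titles name AB1 ES cells as the wild-type line and as the source of the Drosha-deficient one. How many clones stand behind the Drosha-deficient line is not stated in the sources used here. Drosha itself stood at 42.1 and 6.22 FPKM (fragments scaled by transcript length and library size) in the wild-type and Drosha-deficient mRNA libraries and at 21.2 and 4.34 FPKM in long RNA. By an estimate from the most frequent level among rows with low values, the libraries held 18300000 to 24000000 fragments in mRNA and long RNA and 2640000 and 2910000 in short RNA. Of 10 ES cell markers in mRNA, 9 were called neither higher nor lower, and their summed level was 2350 and 2492 FPKM. Of 8 fibroblast markers 7 were measured, and 5 of these were lower in the Drosha-deficient library in mRNA and 5 in long RNA. The summed level of all 8 was 122 and 11.4 FPKM in mRNA, and 47.7 and 3.40 in long RNA, with no marker at 0 in either fraction. In bulk RNA fewer cells of a type and less RNA per cell cannot be told apart, and the part of this difference in the values below was not tested.

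Mitochondria keep a small circular genome that encodes subunits of the respiratory chain and of ATP synthase, both ribosomal RNAs of the mitochondrial ribosome and a set of transfer RNAs. Both strands are transcribed into long precursors, and the transfer RNAs that punctuate them are cut out to release the individual RNAs; most of the messages then receive a short poly(A) tail. Pieces of the mitochondrial genome have been copied into nuclear chromosomes during evolution, and reads from such a copy and from the mitochondrion can be told apart only where the sequences differ.

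RefSeq lists 37 genes on the mouse mitochondrial genome (GRCm38): 13 protein-coding genes, 2 ribosomal RNAs and 22 transfer RNAs. The tables hold them in 8 rows, because genes that lie in a run were joined into 1 row. The row called mt-Nd1,mt-Nd2 in mRNA and short RNA, and mt-Tf in long RNA, covers positions 1 to 5016. It holds 2 subunits of complex I, which takes electrons from NADH, and RefSeq places both ribosomal RNAs inside it. The row from position 5328 to 14139 is named for mt-Co1, mt-Co2 and mt-Co3 (the catalytic core of complex IV, which reduces oxygen), mt-Atp6 and mt-Atp8 (ATP synthase), and mt-Nd3, mt-Nd4, mt-Nd4l and mt-Nd5 (complex I). In long RNA the same row is named mt-Co1 alone, and it is called the mt-Co1 to mt-Nd5 row here. The row of mt-Cytb, the only mitochondrially encoded subunit of complex III, covers positions 14145 to 15355. The other 5 rows belong to genes read from the opposite strand: mt-Nd6 (complex I) and the transfer RNA rows mt-Tq, mt-Ts1, mt-Tp and mt-Ta,mt-Tc,mt-Tn,mt-Ty. The last of these is named mt-Ta alone in long RNA and covers positions 5018 to 5326, and mt-Tp covers 15356 to 15422. The rows mt-Tq, mt-Ts1 and mt-Nd6 are listed with the whole interval of the longer row that they overlap. Strand use in read counting is not stated in the sources used here, so reads of these rows and of the overlapping row cannot be told apart from the tables alone.

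Every member had the authors' status OK in mRNA and long RNA. In short RNA 10 of 12 did, and mt-Ts1 and mt-Tp had the status NOTEST and were listed at 0 in both libraries. No member had a failed status or one for too many fragments. A row was measured when its status was OK and the higher of its values was 1 FPKM or more. Higher and lower calls describe the Drosha-deficient library and need a log2 difference of FPKM + 1 of 1 in size, which is 2-fold. Fold values for single rows are ratios of FPKM without the pseudocount. With 1 library per genotype and fraction no difference has a replicate check, and levels are compared only within a table.

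In mRNA the mitochondrial rows were higher or little different in the Drosha-deficient library. Of 8 measured rows 4 were called higher and none lower, with a median log2 difference of 0.98. Across all 14752 measured rows 8.64% were called higher and 7.93% lower, with a median of 0.01. The mt-Nd1,mt-Nd2 row went from 2351 to 5182 FPKM, 2.20-fold higher, and was the only called row among those that hold heavy-strand messages. The mt-Co1 to mt-Nd5 row, the most abundant of the members, stood at 13690 and 19381 FPKM, a ratio of 1.42. The mt-Cytb row stood at 699 and 1192 FPKM, a ratio of 1.71. All 3 rows that hold messages from the heavy strand were thus above their wild-type level in this library, by less than 2-fold in 2 of them. The mt-Nd1,mt-Nd2 row also spans both ribosomal RNAs, and their part in its value was not tested.

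The rows of the opposite strand spread more widely in mRNA. The mt-Nd6 row stood at 326 and 282 FPKM, the only mitochondrial row with a lower value in the Drosha-deficient mRNA library. The transfer RNA for glutamine, mt-Tq, went from 121 to 811 FPKM, and the joint row of the transfer RNAs for alanine, asparagine, cysteine and tyrosine from 62.0 to 479 FPKM, 6.71-fold and 7.73-fold higher. The serine transfer RNA mt-Ts1 was listed at 0 in the wild-type library and stood at 54.4 FPKM in the Drosha-deficient one, so no fold is given. The proline transfer RNA mt-Tp stood at 64.1 and 113 FPKM and was called in neither direction. Transfer RNAs are so short that few fragments make a high FPKM; the fragments behind these rows were not estimated.

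In long RNA the mitochondrial rows went both ways. Of 8 measured rows 2 were called higher and 0 lower; the median log2 difference was 0.01 against -0.04 for all 13933 measured rows. Of those rows 6.26% were higher and 6.89% lower. The row named mt-Tf stood at 1507 and 1015 FPKM and the mt-Co1 to mt-Nd5 row at 1352 and 931 FPKM, both below their wild-type level by less than 2-fold. The mt-Cytb row stood at 161 and 189 FPKM, above it. The mt-Nd6 row stood at 121 and 67.8 FPKM. The rows called higher were the transfer RNAs mt-Tq, from 1444 to 3624 FPKM, and mt-Ts1, from 6.03 to 48.9 FPKM. The mt-Ta row had 297 and 370 FPKM and the mt-Tp row 357 and 308 FPKM, and neither was called. By FPKM the mt-Tq row was thus the highest mitochondrial row of the Drosha-deficient long RNA library, ahead of the mt-Tf and mt-Co1 to mt-Nd5 rows. In the wild-type library it already stood above the mt-Co1 to mt-Nd5 row and close below the mt-Tf row. The limit on FPKM of short transfer RNAs holds here too.

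In short RNA, with FPKM as deposited, all 6 measured mitochondrial rows had lower values in the Drosha-deficient library. By the size rule 4 were lower and none higher, with a median log2 difference of -1.06 against -0.03 for all 2597 measured rows, of which 18.4% were lower and 14.8% higher. The mt-Nd1,mt-Nd2 row went from 480 to 225 FPKM, mt-Cytb from 439 to 213 FPKM and mt-Nd6 from 505 to 141 FPKM. The mt-Tq row went from 754 to 283 FPKM. The mt-Co1 to mt-Nd5 row, at 2923 and 1468 FPKM, had a log2 difference of -0.99 and lay just short of the 2-fold size rule. The row of mt-Ta,mt-Tc,mt-Tn,mt-Ty stood at 495 and 399 FPKM. Of the scalings tried, 1 reversed this direction and the others kept it. The summed FPKM of all rows was 4060451 in the wild-type and 873840 in the Drosha-deficient short RNA library. As a share of that sum the mitochondrial rows made up 0.138% and 0.312%, the opposite order. When each library was divided by the summed FPKM of its other rows, the median log2 difference of the mitochondrial rows in short RNA was 1.15, with 4 rows higher and none lower. Rows of at most 200 bases make up most of that wild-type sum. With only other rows longer than 200 bases in the sum, chosen after seeing the data, the median was -0.65, with 2 rows lower. Centred on the median of all measured rows it was -1.04, with 4 lower.

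In mRNA the mitochondrial rows made up 3.48% of the summed FPKM of the wild-type and 5.30% of the Drosha-deficient library, and in long RNA 1.02% and 1.36%. In long RNA the higher sum of the Drosha-deficient library, 6553 against 5245 FPKM, came with lower values of the mt-Tf and mt-Co1 to mt-Nd5 rows. The mt-Tq row was higher there. The mt-Tf row spans both ribosomal RNAs as well as messages.

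**Figure D1:**
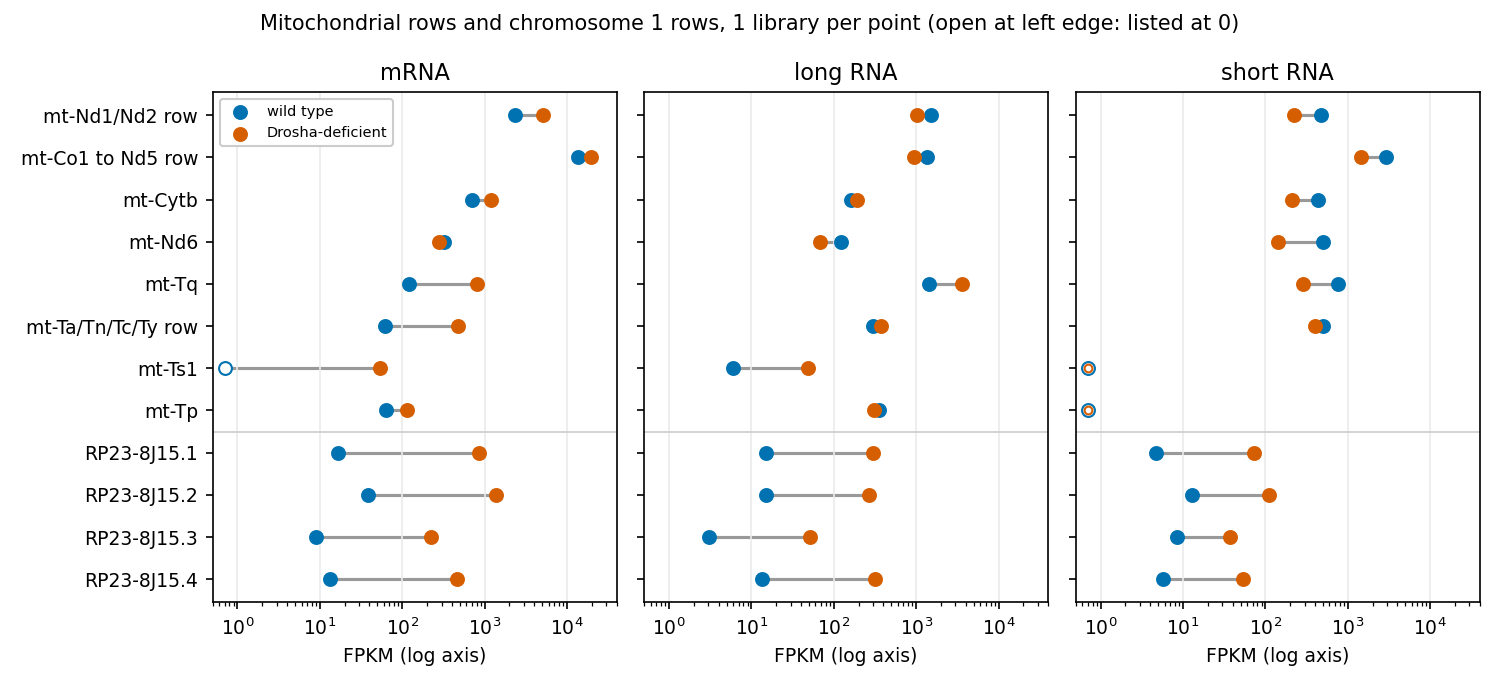
FPKM (log axis) of the 8 mitochondrial rows and of RP23-8J15.1 to RP23-8J15.4 in the wild-type and the Drosha-deficient library of each fraction, 1 library per point; open points at the left edge are listed at 0. The 4 chromosome 1 rows were higher in the Drosha-deficient library in every fraction. The mt-Co1 to mt-Nd5 row stood at 13690 and 19381 FPKM in mRNA, 1352 and 931 in long RNA and 2923 and 1468 in short RNA as deposited. With each short RNA library divided by its other rows, the median of the mitochondrial rows there was higher, not lower. With only other rows longer than 200 bases in that sum it was lower.

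The chromosome 1 rows RP23-8J15.1 to RP23-8J15.4 lie between positions 24613189 and 24616197. At the place of RP23-8J15.3 RefSeq lists the pseudogene Gm10925 (chromosome 1, 24613971 to 24614651, GRCm38), which has mt-Atp6 among its synonyms. Gm10925 and the mitochondrial ATP6 gene (positions 7927 to 8607) both span 681 bases. When the end of the pseudogene was set on the start of ATP6 and the chromosome was read in reverse, the other rows fell on mitochondrial genes in their mitochondrial order. RP23-8J15.1 (492 bases) fell on the end of COX1, RP23-8J15.2 (681 bases) on COX2, RP23-8J15.3 (678 bases) on ATP6 and RP23-8J15.4 (783 bases) on COX3. Row and gene lengths differed by 3 bases for COX2 (684), 3 for ATP6 and 1 for COX3 (784). Further rows of the same clone, which are no members and were added after their values were seen, extend this stretch. RP23-8J15.5 fell on ND3, and the joint row of Gm10222 and RP23-8J15.7 fell on ND4L and part of ND4. In all, 6 rows span 4663 bases (chromosome 1, 24611535 to 24616197), which correspond to mitochondrial positions 6381 to 11043. All of these genes lie in the mt-Co1 to mt-Nd5 row, so that row is the one to set beside them. The match rests on coordinates and names; the sequences themselves were not compared.

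In mRNA the 4 chromosome 1 rows did not follow that mitochondrial row. RP23-8J15.1 went from 16.6 to 865 FPKM, RP23-8J15.2 from 38.8 to 1372, RP23-8J15.3 from 8.99 to 222 and RP23-8J15.4 from 13.2 to 461. These are ratios of 52.2, 35.4, 24.7 and 34.9, beside 1.42 for the mt-Co1 to mt-Nd5 row. All 4 were called higher, with a median log2 difference of 5.07. The 4 rows ranked 5, 11, 21 and 14 among the 14752 measured rows by log2 difference. By estimate the wild-type values rest on 130 to 563 fragments and the Drosha-deficient ones on 3606 to 22422. Counting error alone gave 95% intervals (exact, Clopper-Pearson) from 20.7 to 29.6 for the ratio of RP23-8J15.3, the smallest of the 4, and from 44.9 to 60.9 for that of RP23-8J15.1, the largest. Such intervals leave out the differences between cultures and libraries, which 1 library per genotype cannot show.

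In long RNA the contrast was one of direction. RP23-8J15.1 went from 15.0 to 299.9 FPKM, RP23-8J15.2 from 15.1 to 265, RP23-8J15.3 from 3.03 to 51.3 and RP23-8J15.4 from 13.4 to 314. The ratios were 20.0, 17.6, 16.9 and 23.5, while the mt-Co1 to mt-Nd5 row was at 0.689 of its wild-type level. All 4 were called higher, with a median log2 difference of 4.14, and RP23-8J15.4, RP23-8J15.1 and RP23-8J15.2 ranked 1, 2 and 3 of 13933 measured rows, with RP23-8J15.3 at 6. The wild-type value of RP23-8J15.3 rests on an estimated 38 fragments, and its ratio had a counting interval from 12.1 to 23.8.

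In short RNA the chromosome 1 rows were higher as well. RP23-8J15.1 went from 4.70 to 73.9 FPKM, RP23-8J15.2 from 12.8 to 112, RP23-8J15.3 from 8.41 to 37.3 and RP23-8J15.4 from 5.80 to 53.4. The ratios ran from 4.43 for RP23-8J15.3 to 15.7 for RP23-8J15.1, and all 4 were called higher, with a median log2 difference of 3.01. They ranked 10, 19, 89 and 21 of 2597 measured rows, in the order of their names. The wild-type values rest on an estimated 6 to 23 fragments, so the interval for RP23-8J15.1 ran from 7.13 to 44.7. The direction of these 4 rows was the same under each way of scaling short RNA tried. Each scaling raised the Drosha-deficient library relative to wild type, by 0.03 to 2.22 in log2. Rows already higher could therefore not change direction.

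**Figure D2:**
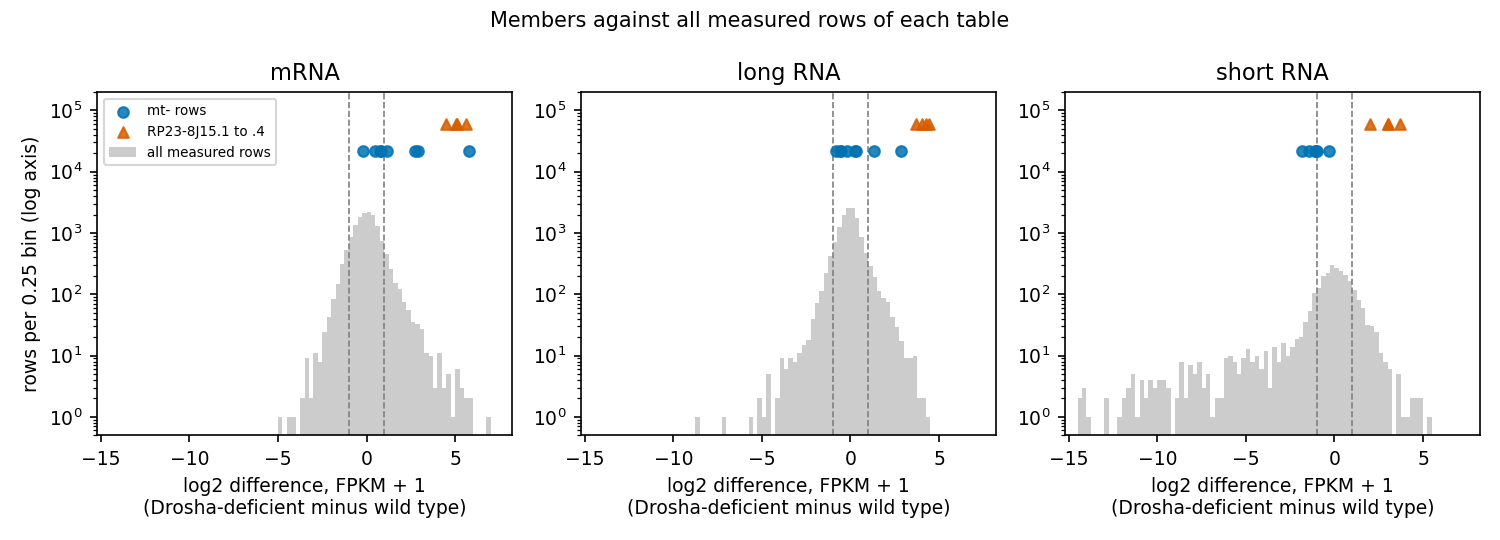
Number of measured rows (log axis) by log2 difference of FPKM + 1, Drosha-deficient minus wild type, in each fraction, with the mitochondrial rows as circles and RP23-8J15.1 to RP23-8J15.4 as triangles at arbitrary heights; dashed lines mark the 2-fold size rule. The triangles lie in the upper tail of each distribution, with medians of 5.07, 4.14 and 3.01. The circles have medians of 0.98, 0.01 and -1.06, the last with FPKM as deposited. That median was 1.15 with each short RNA library divided by its other rows, and -0.65 with only other rows longer than 200 bases in the sum.

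The authors' deposited table of mRNA marks RP23-8J15.2 and RP23-8J15.4 as significant, both with a Cuffdiff q-value of 0.0445. The authors' deposited table of long RNA marks RP23-8J15.1, RP23-8J15.2 and RP23-8J15.4, each with a q-value of 0.0425. In the authors' deposited table of short RNA none of the 4 is marked, and RP23-8J15.4 has the lowest q-value of them, 0.0580. Of all rows with the status OK, 0.112% carry that mark in mRNA, 0.118% in long RNA and 3.27% in short RNA. No mitochondrial row carries it in any authors' deposited table, and their lowest q-value is 0.832, for mt-Nd6 in short RNA. These q-values set 1 library against 1 and do not measure the genotypes.

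Within the stretch the rows differed from each other. RP23-8J15.5, at the place of ND3, stood at 198 and 303 FPKM in mRNA, 194 and 195 in long RNA and 333 and 197 in short RNA. Its ratios were 1.53, 1.01 and 0.592, beside 1.42, 0.689 and 0.502 for the mt-Co1 to mt-Nd5 row, and it was called in no fraction. The gap was widest in long RNA. Counting error alone gave intervals for the ratio of RP23-8J15.5 of 0.932 to 1.09 there, 1.44 to 1.64 in mRNA and 0.492 to 0.709 in short RNA. They leave out the error of the mitochondrial row and differences between libraries, so they cannot show whether the 2 rows depart from each other. With 345 bases RP23-8J15.5 is also shorter than the rows from which fragments were estimated. In the wild-type libraries RP23-8J15.5 was the most abundant row of the stretch in every fraction. The joint row of Gm10222 and RP23-8J15.7, next to it, had the lowest wild-type level, at 2.71 FPKM in mRNA, and went to 138 FPKM, a ratio of 50.9. In long RNA that row had 1.13 and 26.5 FPKM and in short RNA 4.01 and 22.9 FPKM. So 5 of the 6 rows of the stretch were called higher in all 3 fractions, and the row that was not called lay between 2 that were.

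**Figure D3:**
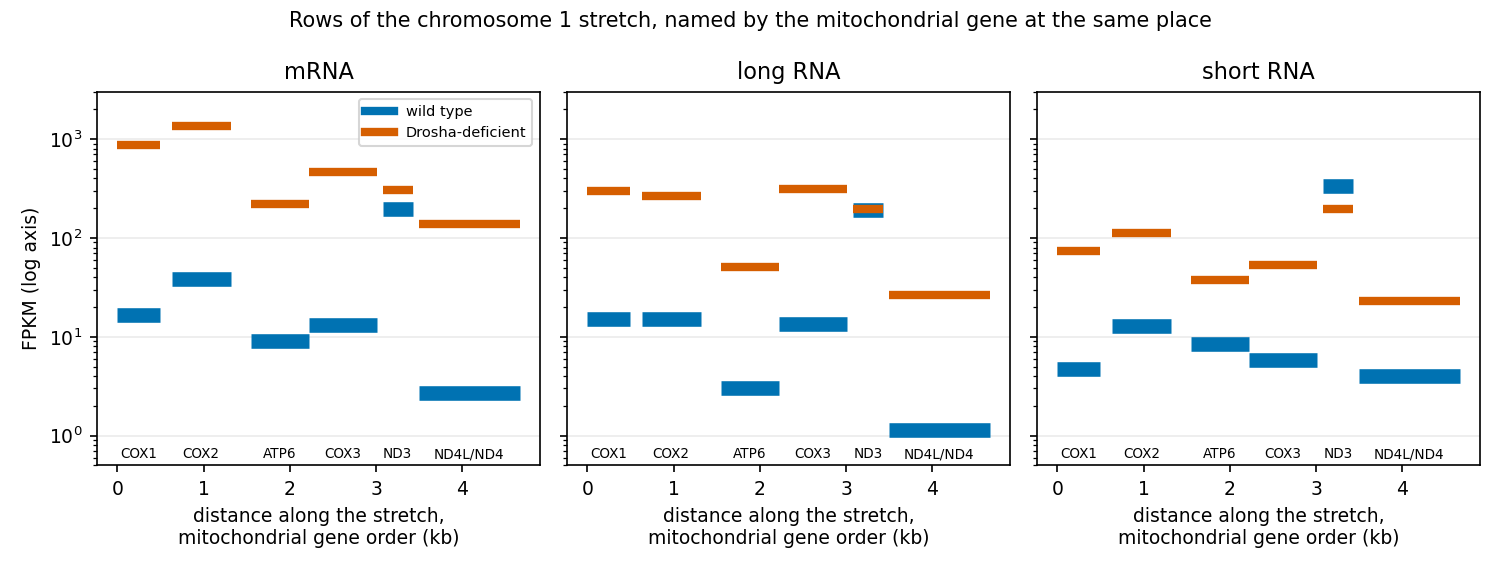
FPKM (log axis) of the 6 rows of the chromosome 1 stretch against their distance in kb along it, drawn in mitochondrial gene order and named by the mitochondrial gene at the same place, with 1 wild-type and 1 Drosha-deficient library per fraction. The row at ND3 had 198 and 303 FPKM in mRNA and 194 and 195 in long RNA, while the rows on either side of it were 34.9-fold and 50.9-fold higher in Drosha-deficient mRNA.

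Set against the mt-Co1 to mt-Nd5 row of the same library, the chromosome 1 rows held a larger part in Drosha-deficient cells in each fraction. The summed FPKM of RP23-8J15.1 to RP23-8J15.4 came to 0.566% of that row in wild-type and 15.1% in Drosha-deficient mRNA and thus 26.6-fold more. In long RNA it came to 3.44% and 99.9%, so the 4 rows together reached the level of the mitochondrial row, and in short RNA to 1.09% and 18.8%. Those are 29.1-fold and 17.3-fold more. The scaling of the libraries cancels in these shares, so they hold whichever sum is used. RP23-8J15.5 came to 1.45% and 1.57% in mRNA, 14.3% and 20.9% in long RNA and 11.4% and 13.4% in short RNA. As FPKM of a joined row adds up the levels of its transcripts, these shares are ratios of row values and not shares of molecules. How reads that match both the chromosome and the mitochondrial genome were assigned is not stated in the sources used here, and the part of such reads in any of these rows was not tested.

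**Figure D4:**
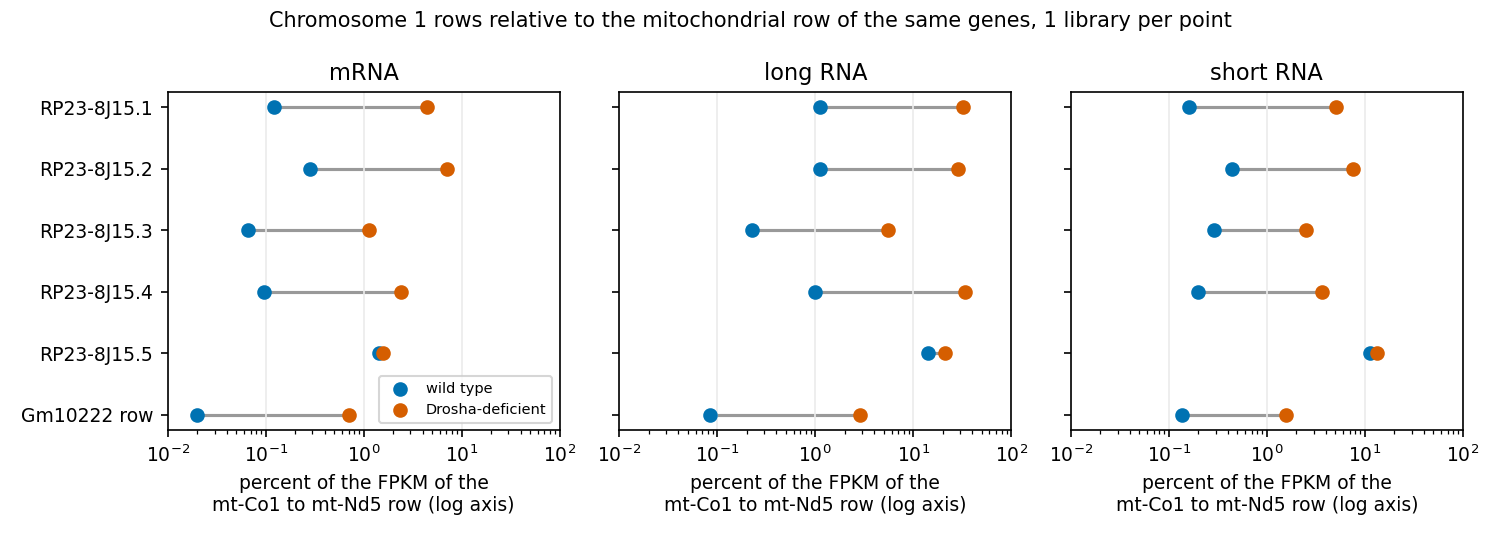
FPKM of each row of the chromosome 1 stretch as a percent (log axis) of the FPKM of the mt-Co1 to mt-Nd5 row in the same library, 1 library per point. The shares of RP23-8J15.5 in wild-type and Drosha-deficient cells were 1.45% and 1.57% in mRNA, 14.3% and 20.9% in long RNA and 11.4% and 13.4% in short RNA, while those of RP23-8J15.1 were 0.121% and 4.46% in mRNA, 1.11% and 32.2% in long RNA and 0.161% and 5.03% in short RNA.

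A row on each side of the stretch was looked at as well, chosen after the values were seen. RP23-8J15.8 (chromosome 1, 24594087 to 24595423) lies within Tubb4b-ps2, a beta-tubulin pseudogene in RefSeq, and had mRNA levels of 0.885 and 8.99 FPKM, a ratio of 10.2. Its long RNA levels of 0.842 and 5.92 FPKM gave a ratio of 7.03, and both differences were called higher. In short RNA it was listed at 0 in both libraries and had the status NOTEST. By estimate its wild-type values rest on 25 and 21 fragments. The coding gene Tubb4b, whose name the pseudogene carries, stood at 90.7 and 178 FPKM in mRNA. Its long RNA values were 49.98 and 100.2 FPKM. These are ratios of 1.97 and 2.00, just short of the size rule on the log2 scale of FPKM + 1 (0.97 and 0.99). Reads that the gene and its pseudogene share make the value of RP23-8J15.8 uncertain. Lmbrd1 (chromosome 1, 24678630 to 24766301), a lysosomal membrane protein gene on the other side of the stretch, stood at 12.6 and 12.9 FPKM in mRNA. Its long RNA values were 5.46 and 3.63 FPKM, and neither difference was called.

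Most nuclear genes that copy, transcribe and process the mitochondrial genome differed by less than 2-fold between the mRNA and between the long RNA libraries. Of 44 names listed, among them Peo1 and Twnk for the same gene, 42 had a row and were measured in mRNA and in long RNA. In mRNA 1 was lower and none higher, with a median log2 difference of 0.02, and in long RNA none was called, with a median of 0.13. Polrmt, the mitochondrial RNA polymerase, stood at 23.8 and 38.4 FPKM in mRNA, and at 6.74 and 7.91 in long RNA. Tfam, which packs mitochondrial DNA and starts its transcription, stood at 77.9 and 80.7 FPKM in mRNA, and at 48.8 and 39.7 in long RNA. Lrpprc, which with its partner Slirp keeps mitochondrial messages stable, stood at 43.0 and 52.0 FPKM in mRNA, and at 56.1 and 60.4 in long RNA. Slirp stood at 138 and 74.0 FPKM in mRNA, and at 79.6 and 51.4 in long RNA, the third largest negative log2 difference of the list in mRNA (-0.89). The lower gene was Mterf1b, of the mitochondrial termination factor family, with 5.33 and 1.51 FPKM in mRNA; its long RNA values were 4.07 and 1.67. Its close paralog Mterf1a stood at 1.25 and 1.57 FPKM in mRNA; reads that both share make their single values uncertain.

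The largest positive differences of the list in mRNA, all short of 2-fold, were those of Polrmt (0.66), 1110008L16Rik (0.66) and Rexo2 (0.63). Rexo2 degrades short RNA fragments in mitochondria, and 1110008L16Rik is the mouse gene of the protein subunit that cuts the front end of mitochondrial transfer RNAs. In long RNA they were Tfb2m (0.59), a factor that opens mitochondrial promoters, 1110008L16Rik (0.59) and Fastkd2 (0.46), which binds mitochondrial RNA. The most negative after Mterf1b were Ssbp1 (-0.98), which coats single-stranded mitochondrial DNA, in mRNA, and Hsd17b10 (-0.65), a subunit of the same transfer RNA cutting complex, and Polg2 (-0.65), a subunit of the mitochondrial DNA polymerase, in long RNA. In short RNA 12 of the 42 genes were measured, with 1 higher and 1 lower, beside 14.8% higher and 18.4% lower of all measured rows.

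**Figure D5:**
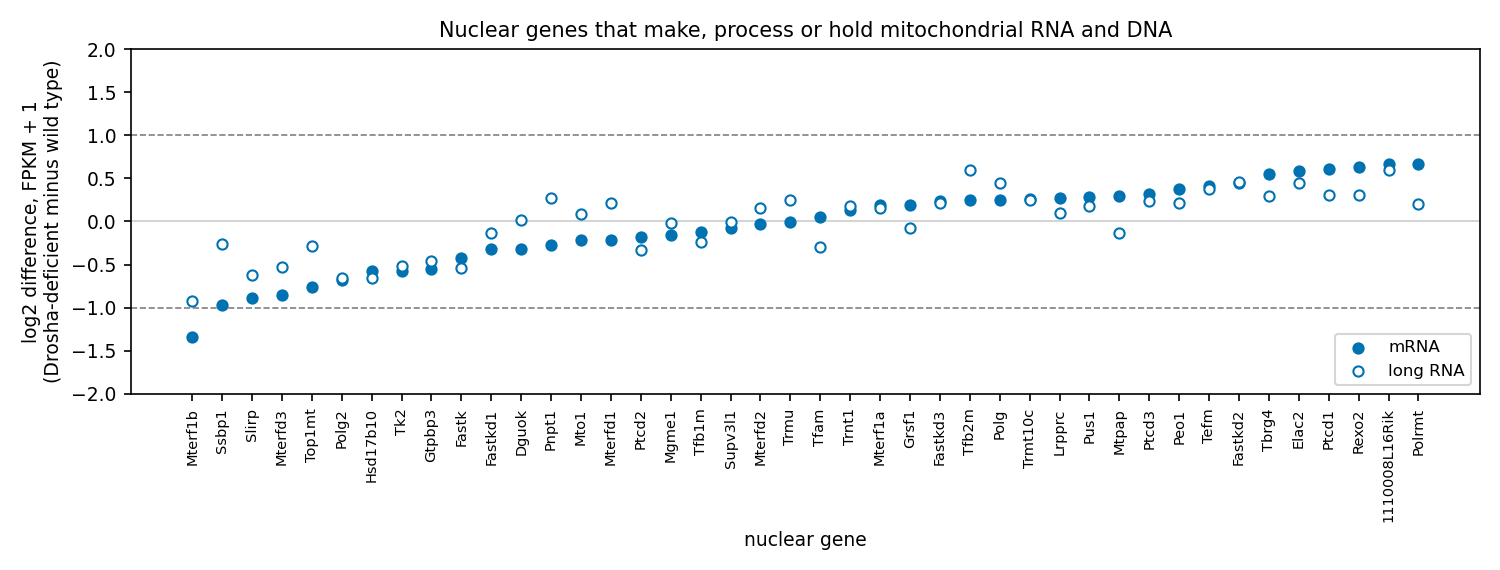
Log2 difference of FPKM + 1, Drosha-deficient minus wild type, for 42 nuclear genes that copy, transcribe or process the mitochondrial genome, in mRNA (filled) and long RNA (open), with dashed lines at the 2-fold size rule. Mterf1b in mRNA is the only point beyond the lines, and the medians are 0.02 in mRNA and 0.13 in long RNA.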

How the data were processed

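The series holds 12 samples; 6 RNA libraries were used, those of the wild-type and Drosha-deficient lines, and the other 6 (3 of Dnmt1-deficient RNA, 3 for methylation sequencing) were not analysed here. The authors deposited FPKM values per row in 3 tables, with the first value for wild type per the file headers. The submitters' processing notes name TopHat2 2.0.10 and Cuffdiff, beside Cufflinks 2.1.1 and bcl2fastq 1.8.4, and the build mm10/GRCm38. The log2 fold changes, p-values and q-values in the deposited tables are the authors'. No label names long RNA: its table was assigned by elimination to the samples titled total RNA. Groups came from titles. Because nothing says that libraries came from separate cultures, and there was 1 per group, no test was run.

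Log2 differences used a pseudocount of 1, a minimum of 1 FPKM and the status OK. The calling rule was run on simulated data without noise, which checks the code and not how calls behave with differences between libraries. Depth was estimated from rows of 400 to 3000 bases with the status NOTEST and names that start with Gm or RP2. The most frequent level among these, as FPKM times length, was taken as 1 fragment. Only values in a narrow window around it were kept. The central 90% of these lay within 0.944 to 1.09 of their median, a spread bounded by the window that does not measure the error of the estimate. Intervals were computed on such estimates, rounded, and cover counting error only. Gene positions came from RefSeq (GRCm38.p6); file coordinates were made 1-based. All mitochondrial and RP23-8J15 rows were named, and of the list of nuclear genes Polrmt, Tfam, Lrpprc, Slirp and up to 3 at each end. Members and lists were chosen with earlier results of these data known. Python 3.11.15, pandas 2.3.3 and scipy 1.17.1 were used.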

Additional observations from a re-analysis of the deposited data

Results flagged for a closer look

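Rows of the mitochondrial genome were called in opposite directions in mRNA and short RNA. The mt-Nd1,mt-Nd2 row had a log2 difference of 1.14 in mRNA and -1.09 in short RNA, and mt-Tq one of 2.74 in mRNA and -1.41 in short RNA. With 1 library per genotype and fraction this difference between fractions was not tested, and both short RNA values depend on the scaling of the libraries.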

How the results depend on the processing

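Each median and count was recomputed with other pseudocounts, minimum levels, row statuses, scalings and, for counts, a 1.5-fold size rule. Of 105 recomputed values 89 moved by at most 0.1 in log2 or, for counts, by at most 1.5 times. The other minimum levels and row statuses could not change any value and are part of that count. Every measured member had the status OK and a higher value of at least 37.3 FPKM, and the unmeasured ones were at 0. Dividing each library by the FPKM of its other rows reversed the median of the mitochondrial rows in short RNA from -1.06 to 1.15, with 4 rows higher and 0 lower, and moved it from 0.01 to 0.11 in long RNA; the chromosome 1 medians became 5.05 and 4.24. Rows of at most 200 bases make up most of the wild-type short RNA sum: over rows longer than 200 bases, chosen after seeing the data, the sums were 692618 and 520887, and the short RNA medians were -0.65 for mitochondrial rows, with 2 lower, and 3.40 for chromosome 1 rows. With a pseudocount of 5 the chromosome 1 medians were 4.83 in mRNA, 3.84 in long RNA and 2.57 in short RNA, and with 0.1 the last was 3.15. With RP23-8J15.5 and the Gm10222 row added after seeing the data they were 3.87 in long RNA and 2.63 in short RNA. At 1.5-fold 1 mitochondrial row was lower in long RNA. In no recomputation did the chromosome 1 medians change sign, but the pseudocounts and scalings tried could not change it. A pseudocount keeps the direction of each row, and the only negative shifts from scaling were -0.02 and -0.01 in log2, in mRNA. Length-weighted sums were not run, since joined rows give no transcript length. No paired analysis was possible because each group had 1 library. Depth limits the chromosome 1 values most in short RNA.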
